A study of Ovis aries with 36 samples.

Results

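Expression in cells labelled as sheep ruminal epithelial cells and held in Hay medium was compared between the first and the last harvest, T0 and T20. These lay 20 h apart. The comparison rests on 6 of the 36 libraries of the series, the 3 labelled Hay at T0 and the 3 labelled Hay at T20, and was made across all genes. All groups share their start: 2 h without serum and with dexamethasone at 100 nM, a synthetic glucocorticoid that synchronises the clocks of cultured cells. The medium that followed held volatile fatty acids (VFAs) at pH 7.2. The VFAs of Hay medium came to a stated 89.79 mM, made up of 60.8 mM acetate, 14.6 mM propionate, 9.2 mM butyrate, 3.0 mM isovalerate, 1.2 mM valerate and 1.0 mM isobutyrate. Grain medium, used here only to ask whether the same change was seen there, had 115.78 mM in all, with 71.1 mM acetate, 20.1 mM propionate, 16.0 mM butyrate, 5.3 mM isovalerate, 1.7 mM valerate and 1.1 mM isobutyrate. T0 is the harvest at 24 h and T20 the harvest at 44 h, and the 4 harvests between them followed every 4 h. The labels do not say clearly from which event these hours are counted. Nothing in them tells if replicates were separate cultures or animals, and p-values therefore cover only the spread of these samples, possibly a technical one. By its title, the series asks how the VFA concentration affects circadian expression, and Hay at T0 and T20 shows how far expression had moved within that one medium.

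The rumen epithelium takes up the VFAs that microbes release from feed and uses butyrate in particular as a fuel. Cultured epithelial and stromal cells can assemble contractile fibres of actin, tropomyosin and transgelin, and they keep their sterol supply steady through the transcription factor SREBP2, which INSIG1 holds back in the endoplasmic reticulum. Immediate early genes such as FOS and EGR1 are switched on within minutes of a stimulus, and the core clock is a feedback loop in which CLOCK and BMAL1 drive the PER and CRY genes that repress them.

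Total counts were 56.9 to 63.0 M in the T0 libraries and 55.1 to 61.3 M in the T20 libraries. Replicates had across-gene correlations of 0.983 to 0.986 in log CPM, and no pair agreed within sampling noise (chi-square over degrees of freedom from 4.85 to 12.1). Mitochondrial mRNA made up 3.05% ± 0.085 of counts at T0 and 3.14% ± 0.13 at T20 (SD, n = 3 each; exact permutation test, two-sided, p = 0.4, where 0.1 is the smallest possible). The number of genes with a count was 24490 ± 109 at T0 and 24130 ± 227 at T20 (exact permutation p = 0.1). Levels are given as CPM, counts scaled to a common library size with TMM factors, and are compared between libraries, not between genes, since they are not per length. Of markers of the labelled cell type, the basal keratin KRT14 stood at 111 to 116 CPM at T0 and 113 to 120 CPM at T20 and EPCAM, an epithelial adhesion molecule, at 23.6 to 24.7 and 21.3 to 23.5 CPM. KRT4, a keratin of differentiated stratified epithelium, had 0 counts in all 6 libraries and KRT1 at most 4. The mesenchymal filament gene VIM stood at 5716 to 5923 CPM at T0 and 6202 to 6497 CPM at T20. Of the same list, COL1A2, COL1A1, LUM and DCN stood at 6184 to 6303, 3331 to 3395, 988 to 1014 and 821 to 864 CPM at T0. PDGFRA and PDGFRB were lower, at 17.2 to 18.4 and 5.4 to 6.8 CPM. Of basal keratinocyte markers, ITGA6 stood at 260 to 266 and TP63 at 8.5 to 10.3 CPM at T0. Mesenchymal transcripts were thus abundant despite the epithelial label, and which cells the changes below come from was not tested. Of markers of other cell types, CDH5 (endothelium), CD3E (T cells), SOX10 (glia) and UPK3B (mesothelium) each stayed under 0.5 CPM, but other members of the same lists were higher. The mesothelial marker MSLN stood at 28.9 to 30.2 CPM at T0 and 24.9 to 26.5 CPM at T20, and the glial marker S100B at 35.0 to 35.6 and 28.4 to 31.2 CPM. The endothelial KDR, the immune CD14 and the mesothelial WT1 stood at 4.52 to 5.24, 3.99 to 4.37 and 1.86 to 2.42 CPM at T0.

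Of the gene lists examined, 7 of 14 smooth muscle markers and 12 of 23 genes of cholesterol synthesis rose from T0 to T20. Of 34 immediate early genes 8 rose, FOS and JUN among them, and 5 fell, namely EGR1, EGR2, EGR3, NR4A1 and JUNB. None of 18 core clock genes passed the test, but so short a list cannot be told from the 3.64% called over all genes. Of 22488 genes tested, 818 differed between the 3 T20 and the 3 T0 libraries (3.64%, edgeR quasi-likelihood test, Benjamini-Hochberg adjusted p under 0.05). They comprised 635 that rose (2.82%) and 183 that fell (0.814%). The changes were small, with a median rise of 0.19 and a median fall of -0.22 on the log2 scale, and 44 genes (25 higher, 19 lower) changed at least 1.5-fold. The 12 genes that changed at least 2-fold each averaged under 5 CPM at both times, among them the growth factor response gene EGR3 at -1.04 (SE 0.18, adjusted p = 0.000451). Rises outnumbered falls mostly among abundant genes. There were 561 rises (7.48%) and 131 falls (1.75%) among the 7496 genes with the highest mean level. The 7496 with the lowest had 8 rises (0.107%) and 5 falls (0.0667%). The gene lists were not matched for level, so lists of abundant genes can exceed the shares over all genes for that reason. The ratio of rises to falls depends on the scaling: with counts scaled to the library sum and no TMM factor, 313 genes rose and 501 fell. DESeq2 size factors gave 523 and 194, a filter of at least 1 CPM gave 555 and 300, a fit of only these 6 libraries gave 544 and 321, and of only the Hay libraries 479 and 292. The count fell to 443 without T0 replicate 2, 487 without T0 replicate 1, 511 without T20 replicate 3 and 542 without T20 replicate 1. Another 2536 genes had an unadjusted p under 0.05 and were not called. Of the 818, 302 overlap another annotated gene and are uncertain, since the library kit kept no strand and reads of overlapping genes cannot be told apart.

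**Figure D1:**
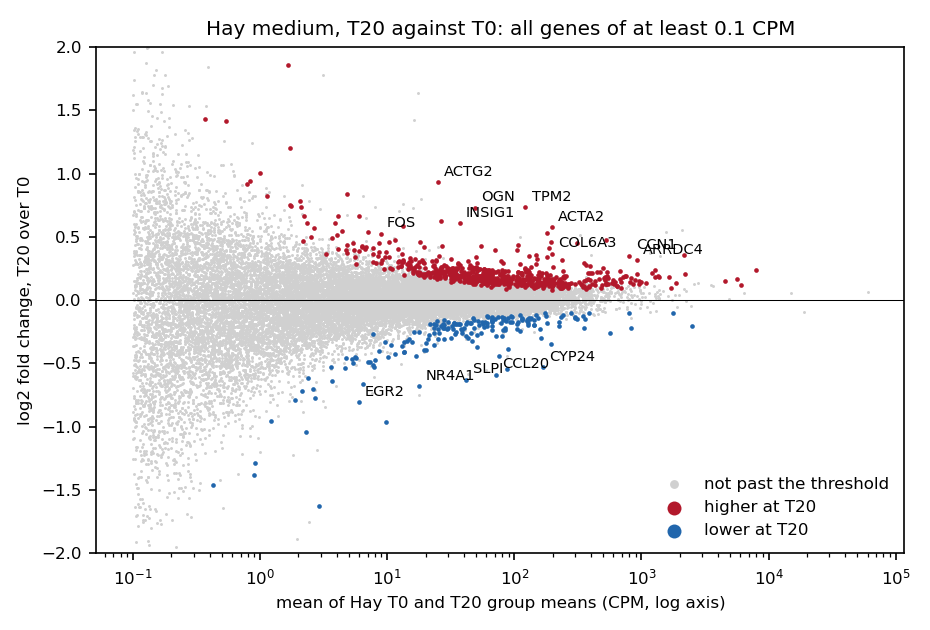
Each point is a gene of at least 0.1 CPM, with the mean of the Hay T0 and T20 group means on a log axis (x) against the log2 fold change T20 over T0 (y). Red points are genes called higher and blue points genes called lower at T20; the called genes form thin bands on both sides of 0, most of them at high abundance, and changes beyond 2 on the log2 scale lie outside the axis.

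The largest rise among genes of at least 5 CPM was that of ACTG2, the smooth muscle gamma actin. Its level was 18.6, 16.8 and 16.2 CPM in the T0 libraries and 32.3, 33.7 and 32.5 CPM in the T20 libraries, a log2 change of 0.93 (SE 0.069, adjusted p = 1.54e-11 by edgeR). The lowest T20 library thus lay far above the highest T0 library, although ACTG2 overlaps another annotated gene and is uncertain. TPM2, a tropomyosin that lies along actin filaments, stood at 92.8, 90.5 and 92.0 CPM at T0 and 154, 156 and 148 CPM at T20 (log2 change 0.73, SE 0.058, adjusted p = 4.86e-11 by edgeR). ACTA2, the alpha smooth muscle actin of muscle cells and activated fibroblasts, stood at 156, 160 and 159 CPM at T0 and 228, 246 and 236 CPM at T20 (0.58, SE 0.045). TAGLN, the actin-binding protein transgelin, stood at 152, 147 and 146 CPM at T0 and 220, 217 and 206 CPM at T20 (0.53, SE 0.051). In all 4 genes the groups lay apart without overlap. MYL9, the regulatory light chain of smooth muscle myosin, rose by 0.43 (SE 0.051) from a mean of 46.2 to 62.3 CPM, and FLNA, an actin cross-linker, by 0.32 (SE 0.037) from 209 to 261 CPM.

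Of 14 smooth muscle markers tested, 7 rose and none fell, with a median log2 change of 0.16 against 0.01 over all genes tested. The other 2 that rose by the test were TPM1 (0.18; it overlaps another gene) and CALD1 (0.19), which encode a tropomyosin and caldesmon. As many were called without each of the 6 libraries and under each scaling tried, and 4 with a minimum fold of 1.2. The markers most typical of mature smooth muscle did not pass: the myosin heavy chain MYH11 changed by 0.06 (adjusted p = 0.843), calponin CNN1 by 0.12 (0.370) and desmin DES by 0.14 (0.557), all edgeR adjusted p. The summed level of the list was 2791 to 2868 CPM at T0 and 3313 to 3473 CPM at T20. In such bulk samples more cells of a type and more RNA per cell cannot be told apart.

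**Figure D2:**
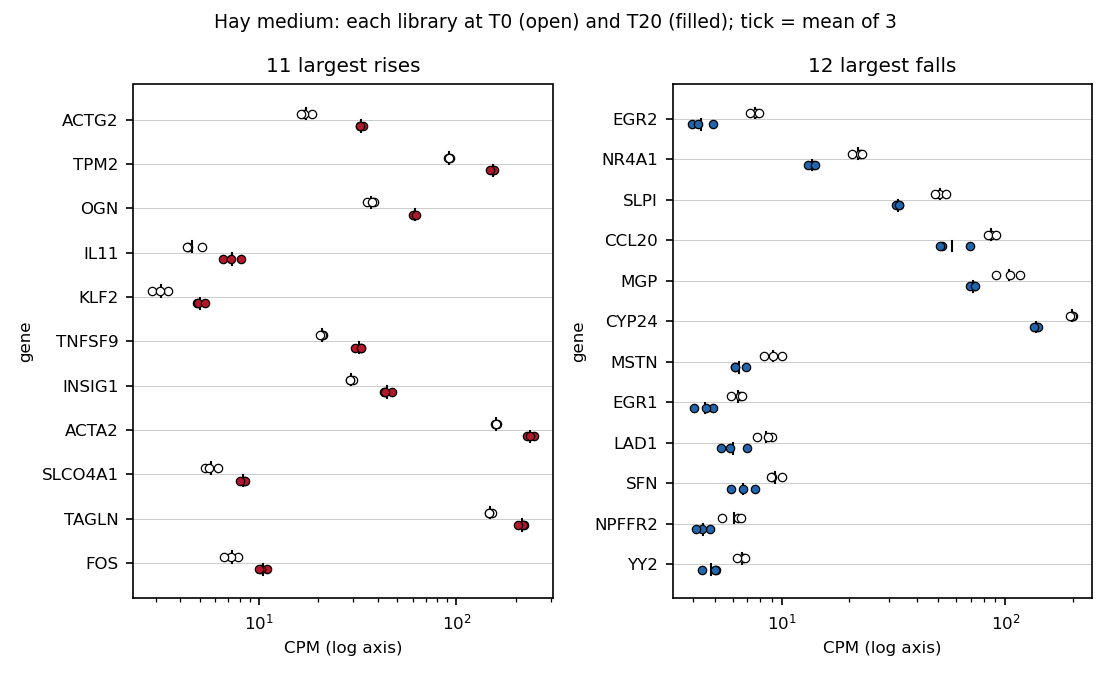
Level in CPM (log axis, x) of the 11 largest rises (left) and the 12 largest falls (right) among genes of at least 5 CPM, with 1 open circle for each Hay T0 library, 1 filled circle for each Hay T20 library and a tick at the mean of 3. Within each gene the open and filled circles do not overlap, which the rule for choosing these genes required.

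Of 34 collagen and matrix genes 9 rose and none fell (median 0.07), with 6 rises without T0 replicate 2 and 7 rises and 2 falls without a TMM factor. TNC, the matrix glycoprotein tenascin C, had the largest change, with 169, 163 and 156 CPM at T0 and 223, 223 and 224 CPM at T20 (0.46, SE 0.058, adjusted p = 1.74e-06 by edgeR; it overlaps another gene). COL6A3, a chain of the microfibrillar collagen VI, rose by 0.37 (SE 0.034), from 172 ± 3.11 to 222 ± 5.39 CPM (SD, n = 3), and its partner chains COL6A1 and COL6A2 rose by 0.19 and 0.21. The basement membrane laminin LAMC1 rose by 0.19 (SE 0.028). The fibrillar collagen genes COL1A1 (0.12, adjusted p = 0.0641 by edgeR), COL1A2 (0.06, 0.342) and COL3A1 (0.07, 0.289) were not called.

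Of 22 TGF-beta target genes 8 rose and 1 fell (median 0.12), and without a TMM factor 7 rose and 5 fell. The risers included the matrix protein gene TGFBI (0.19, SE 0.042) and the lysyl oxidase LOXL2 (0.20; overlaps another gene). TGFB1, a ligand of the pathway, rose by 0.20 (overlaps another gene). TGFB2, another ligand, stood at 103, 102 and 98.8 CPM at T0 and 74.1, 81.9 and 77.1 CPM at T20, a log2 change of -0.38 (SE 0.055, adjusted p = 2.02e-05 by edgeR). The pair of ligands thus moved in opposite directions. Of 22 YAP-TEAD targets 3 rose and 1 fell; CCN1, a matricellular protein, went from 706 to 901 CPM, with 715, 709 and 696 CPM at T0 and 886, 926 and 892 CPM at T20 (0.35, SE 0.034). OGN, the small matrix proteoglycan osteoglycin, rose by 0.73 (SE 0.062) from 37.0 ± 1.39 to 61.4 ± 1.15 CPM, but it overlaps another gene. IL11, a cytokine of the interleukin-6 family, stood at 4.35, 5.12 and 4.32 CPM at T0 and 6.57, 7.26 and 8.09 CPM at T20 (0.67, SE 0.095). TNFSF9, a ligand of the tumour necrosis factor family, stood at 21.1, 20.9 and 20.4 CPM at T0 and 32.8, 30.7 and 32.9 CPM at T20 (0.63, SE 0.057). SLCO4A1, an organic anion transporter, rose by 0.54 (SE 0.087) from 5.71 ± 0.456 to 8.29 ± 0.207 CPM. These cytokine, ligand and transporter levels did not overlap between the groups, as the rule that chose the genes required.

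Of 23 genes of cholesterol synthesis and its control, 12 rose and none fell, with a median of 0.16. The count was 9 without T0 replicate 1, 10 or 11 without the others, and 11 without a TMM factor. INSIG1, the brake on SREBP2 that sterol-starved cells also induce, stood at 30.0, 28.9 and 29.1 CPM at T0 and 47.3, 43.1 and 43.6 CPM at T20 (0.61, SE 0.044, adjusted p = 1.54e-11 by edgeR). MSMO1, a demethylase that acts after lanosterol, stood at 132, 137 and 128 CPM at T0 and 167, 170.5 and 162 CPM at T20 (0.33, SE 0.041). All T20 libraries of both genes lay above the T0 range, which the rule for the largest rises required of INSIG1. SREBF2, which encodes SREBP2 itself, rose by 0.30 (SE 0.040). Along the pathway, the early enzyme HMGCS1 rose by 0.18. IDI1 (0.24), FDFT1 (0.27), SQLE (0.16), LSS (0.25) and DHCR7 (0.25) rose as well. SREBF2, IDI1 and FDFT1 overlap another gene. In fatty acid synthesis 2 of 19 genes rose, the citrate lyase ACLY (0.12) and the elongase ELOVL1 (0.23); without T0 replicate 3 neither passed (edgeR adjusted p = 0.0608 and 0.0788).

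Of 25 genes of the tricarboxylic acid (TCA) cycle 7 rose and none fell (median 0.09), and 4 rose without a TMM factor. Of these 25 genes 15 overlap another gene. SDHB, the iron-sulphur subunit of succinate dehydrogenase, rose by 0.19 (SE 0.033) from 58.5 to 66.5 CPM. Of 21 glycolysis genes 5 rose and none fell (median 0.08), among them the aldolase ALDOA (0.22, SE 0.045), but 1 rose without a TMM factor and 3 without T20 replicate 1, T0 replicate 2, T0 replicate 3 or T20 replicate 3. Of 53 cytosolic ribosomal protein genes 7 rose, all 53 had a positive log2 change (median 0.08, highest 0.20 for RPL28), and 1 rose without a TMM factor, with 2 without T0 replicate 1 or T20 replicate 1. In this list 27 genes overlap another gene. Of 28 NRF2 antioxidant genes 6 rose, but 1 rose without a TMM factor and none without T0 replicate 2, where a single library is left out. Of 24 unfolded protein response genes 6 rose, led by the disulphide isomerases P4HB (0.16) and PDIA3 (0.18; overlaps another gene), with 3 without a TMM factor and 1 without T0 replicate 2. Of 27 genes of VFA and acid transport 1 rose and none fell, and the direction of the call turned with the setting. Without a TMM factor or without T20 replicate 1 none rose and the bicarbonate transporter SLC4A7 was called lower (edgeR adjusted p = 0.0123 and 0.0492, against 0.0545 with all libraries and TMM factors; it overlaps another gene), and without any 1 of the other 5 libraries none was called. None of 27 genes of short-chain acid and ketone metabolism was called by edgeR or DESeq2, and 5 had an unadjusted p under 0.05.

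The list of thioredoxin-interacting and arrestin-domain genes also held TXN and MLXIPL, which are neither. Of its 9 genes 4 rose and none fell (median 0.13). ARRDC4, which like TXNIP restrains glucose uptake, stood at 807, 828 and 822 CPM at T0 and 1019, 1043 and 1004 CPM at T20 (0.32, SE 0.030, adjusted p = 3.38e-09 by edgeR). TXNIP, the thioredoxin-interacting protein, stood at 1272, 1276 and 1285 CPM at T0 and 1449, 1454 and 1444 CPM at T20 (0.18, SE 0.030; it overlaps another gene). Both groups of libraries were tight and far apart. The others that rose were TXN, thioredoxin itself (0.16), and MLXIPL, a glucose-responsive transcription factor (0.45). TXN and MLXIPL overlap another gene, and their calls were lost without T0 replicate 1, T0 replicate 3 or T20 replicate 3, MLXIPL also without T0 replicate 2 or T20 replicate 1.

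Immediate early genes moved in both directions, with 8 rises and 5 falls among 34 tested and a median of -0.02. Without a TMM factor 8 rose and 8 fell, and without T0 replicate 3 5 rose and 4 fell. FOS, a subunit of the AP-1 transcription factor, stood at 7.86, 7.26 and 6.67 CPM at T0 and 11.0, 10.3 and 10.0 CPM at T20 (0.53, SE 0.079, adjusted p = 4.28e-05 by edgeR). Its partner JUN rose by 0.29 (SE 0.045) from 99.5 to 121 CPM and JUND by 0.27, while JUNB changed by -0.19 (adjusted p = 0.0477 by edgeR). DUSP1, a phosphatase that switches off MAP kinases, rose by 0.35 (SE 0.042) from 114 to 146 CPM. KLF2, a zinc-finger factor, stood at 2.89, 3.48 and 3.16 CPM at T0 and 4.87, 4.93 and 5.32 CPM at T20 (0.67, SE 0.10).

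The falls in this list were JUNB, NR4A1 and the 3 EGR genes EGR1, EGR2 and EGR3. EGR2 stood at 7.67, 7.18 and 7.92 CPM at T0 and 3.94, 4.91 and 4.22 CPM at T20, the largest fall among genes of at least 5 CPM (-0.80, SE 0.13, adjusted p = 0.000179 by edgeR). NR4A1, an orphan nuclear receptor, stood at 22.4, 20.5 and 22.8 CPM at T0 and 13.8, 13.1 and 14.1 CPM at T20 (-0.68, SE 0.080). EGR1 stood at 5.89, 6.45 and 6.64 CPM at T0 and 4.02, 4.91 and 4.56 CPM at T20 (-0.50, SE 0.078). In each gene all T20 libraries lay below all T0 libraries, as the rule that chose these genes required. EGR3 stood at 3.25, 2.68 and 3.29 CPM at T0 and 1.20, 1.64 and 1.65 CPM at T20.

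Other genes among the 12 largest falls were SLPI, CYP24, MGP, CCL20 and MSTN. SLPI, a secreted protease inhibitor of epithelia, stood at 50.5, 48.3 and 54.2 CPM at T0 and 33.4, 32.3 and 33.3 CPM at T20 (-0.63, SE 0.060, adjusted p = 5.04e-09 by edgeR). CYP24, the vitamin D 24-hydroxylase, stood at 201, 199 and 195 CPM at T0 and 139, 139 and 134 CPM at T20 (-0.53, SE 0.039, adjusted p = 1.54e-11). MGP, the matrix Gla protein that inhibits calcification, stood at 105, 90.8 and 117 CPM at T0 and 72.0, 69.5 and 72.9 CPM at T20 (-0.54, SE 0.060). The T20 values of these 3 genes were tightly grouped and lay under the T0 range, the latter required by the rule that chose them. CCL20, a chemokine of epithelia, varied more, with 86.1, 83.2 and 90.3 CPM at T0 and 52.2, 50.8 and 69.5 CPM at T20 (-0.59, SE 0.11). MSTN, the growth inhibitor myostatin, fell by 0.51 (SE 0.10) from 9.14 to 6.41 CPM and overlaps another gene. MMP12, a macrophage-type elastase, fell by 0.30 (SE 0.059) from 178 to 145 CPM.

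Of 12 simple epithelial markers 3 fell and none rose (median -0.13, against 0.01 over all genes), with summed levels of 341 to 354 CPM at T0 and 305 to 316 CPM at T20. KRT8, a keratin of simple epithelia, stood at 90.01, 94.7 and 88.9 CPM at T0 and 76.9, 75.6 and 81.9 CPM at T20 (-0.22, SE 0.059), and KRT19 (-0.23) and the tight junction gene CLDN4 (-0.32) were the others. These calls rest on few libraries: none of the 3 remained without T0 replicate 1 or T20 replicate 1, 1 without T0 replicate 2 or T20 replicate 2, and 2 without T20 replicate 3. The epithelial genes LAD1 (-0.48) and SFN (-0.47) were also among the 12 largest falls, with LAD1 at an adjusted p of 0.0503 without T0 replicate 1 and 0.0689 without T20 replicate 2, and SFN at 0.0518 without T0 replicate 1 and 0.0691 without T20 replicate 1 (edgeR). Of 17 basal keratinocyte markers 1 rose (CD44, 0.19, with an edgeR adjusted p of 0.113 without T20 replicate 3) and 1 fell (SFN), and KRT14 changed by 0.04 and KRT5 by 0.07, neither past the threshold. Of 26 fibroblast and mesenchymal markers 6 rose and none fell (median 0.06), VIM among them at 0.12, with summed levels of 23920 to 24530 CPM at T0 and 25060 to 26200 CPM at T20. That count was 7 without T20 replicate 1, 1 without T0 replicate 2, 2 without T20 replicate 3 and 3 without each of the others, and without a TMM factor 2 rose and 1 fell. Of 8 mesothelial markers 2 fell and none rose (median -0.23), MSLN, the surface protein mesothelin (-0.22, edgeR adjusted p = 0.0214), and KRT19 again; 1 fell without T0 replicate 2, T0 replicate 3 or T20 replicate 2 and none without each of the others. Of 7 neural crest and glial markers S100B, a calcium-binding protein, was the single call (-0.23, edgeR adjusted p = 0.0213; overlaps another gene). It was lost without any 1 of the T0 libraries or T20 replicate 1, with adjusted p up to 0.145. The part of these marker levels in the changes of contractile and matrix genes was not tested. The remaining 2 of the 12 falls were NPFFR2, a neuropeptide receptor (-0.47), and YY2, a zinc-finger factor (-0.45; overlaps another gene). The NPFFR2 call was lost without any 1 library but T0 replicate 3, with adjusted p up to 0.174, and so was that of YY2, up to 0.161 (edgeR).

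None of 18 core clock genes was called between T0 and T20 by edgeR, where 4 had an unadjusted p under 0.05, and DESeq2 called 1. Over all 22488 genes tested edgeR called 818 (3.64%), and another 2536 had an unadjusted p under 0.05. A list of 18 genes without a call therefore does not set the clock apart from other genes. BMAL1, the activator of the loop, stood at 42.4, 36.3 and 40.5 CPM at T0 and 42.5, 42.2 and 40.6 CPM at T20 (0.07, SE 0.041, adjusted p = 0.453 by edgeR), with overlapping groups. CRY1, a repressor, stood at 84.6, 81.1 and 78.5 CPM at T0 and 69.3, 74.5 and 71.3 CPM at T20 (-0.18, SE 0.063, adjusted p = 0.1); it overlaps another gene. CRY1 was the gene called by DESeq2 (adjusted p = 0.0294), and it also passed in edgeR without a TMM factor (0.0370) and with only these 6 libraries fitted (0.0115). RORA, a nuclear receptor that activates BMAL1, stood at 18.1, 17.9 and 16.9 CPM at T0 and 15.0, 16.7 and 14.7 CPM at T20 (-0.19, SE 0.070, adjusted p = 0.146 by edgeR). CRY1, RORA and BTRC, a ubiquitin ligase subunit that marks PER proteins for breakdown (-0.11, adjusted p = 0.176; overlaps another gene), were the 3 clock genes whose T20 libraries all lay below T0. None had all T20 libraries above, against 12.6% higher and 9.51% lower over all genes tested. BTRC passed without a TMM factor (0.0441). Over the 12 libraries of T4 to T16, 3 clock genes had an upward and 3 a downward slope past the threshold, CRY1 and RORA among the latter (-0.41 and -0.55 from T4 to T16 on the log2 scale). PER1 stood at 10.0 ± 0.538 and 8.72 ± 0.884 CPM (-0.20, SE 0.089) and PER2 at 3.85 ± 0.672 and 3.84 ± 0.585 CPM (SD, n = 3). Of 20 clock output genes, KLF9, a glucocorticoid-responsive factor, was the single call (-0.18, adjusted p = 0.0202 by edgeR). It lost its call without T0 replicate 1 or 2 or T20 replicate 2 or 3, with adjusted p up to 0.1.

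**Figure D3:**
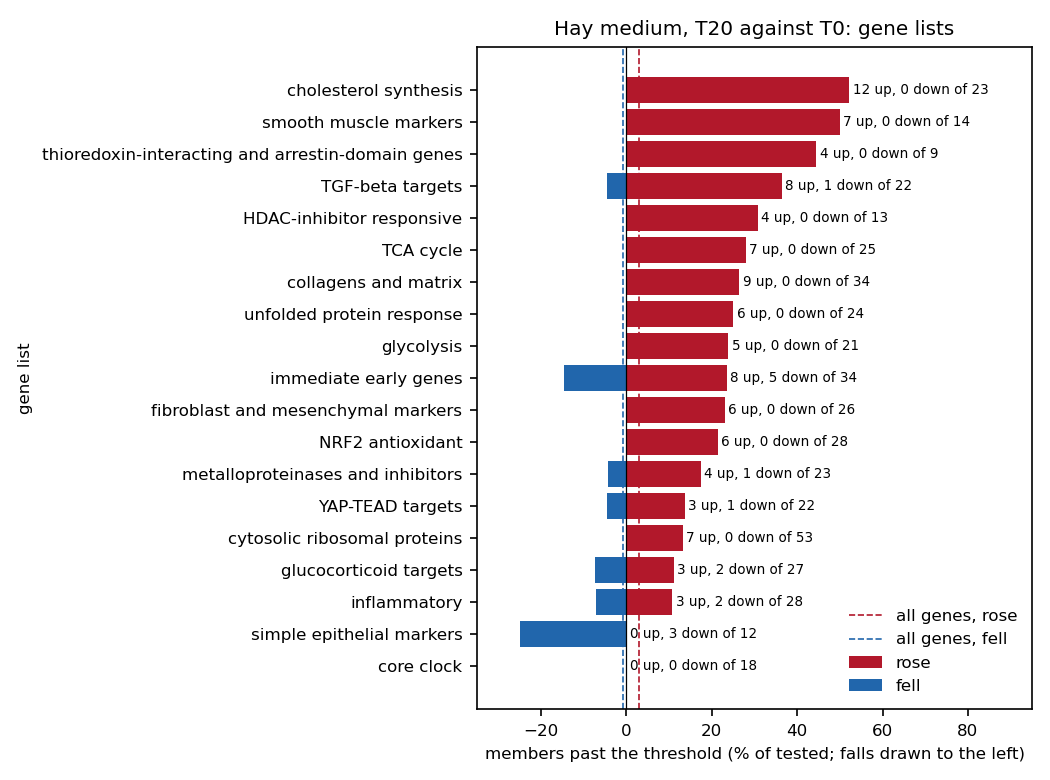
Share of the tested members of a gene list that rose (red, to the right) or fell (blue, drawn to the left) between T0 and T20 in Hay medium, in percent, with the counts printed beside the bars. Only the lists with the most calls are drawn, with the core clock and simple epithelial markers added. The dashed lines mark the shares over all genes tested, 2.82% higher and 0.814% lower, not matched for level. Cholesterol synthesis and smooth muscle markers have the longest bars. The core clock has none, as would lists that are not drawn, such as the interferon response genes.

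The 50 lists held 1146 distinct genes, of which 1081 were tested and 144 called (122 higher, 22 lower). Of 13 genes that respond to inhibitors of histone deacetylases 4 rose and none fell (median 0.02), TXNIP, KLF2, KLF6 (0.19) and CCN2 (0.15; overlaps another gene), and as many rose without each of the 6 libraries and without a TMM factor. Of 23 metalloproteinases and inhibitors 4 rose, among them the membrane-bound collagenase MMP14 (0.26) and the inhibitor TIMP3 (0.16; overlaps another gene), and MMP12 fell (median 0.07); 2 rose without T20 replicate 2. Of 27 glucocorticoid targets DUSP1, TXNIP and the kinase SGK1 (0.18) rose, and KLF9 and the metalloreductase STEAP4 (-0.40) fell (median 0.02). Those falls numbered 1 without T20 replicate 1 or T0 replicate 3, none without each of the others and 3 without a TMM factor. Of 28 inflammatory genes IL11, IL18 (0.15) and PTGS2, the inducible cyclooxygenase (0.24; overlaps another gene), rose and CCL20 and TNFAIP6 (-0.20) fell, with 1 fall without T20 replicate 2 or 3. The remaining lists had at most 3 calls each, among them 3 of 20 aminoacyl-tRNA synthetases and 3 of 20 heat shock genes that rose, 1 rise and 1 fall in 41 mitosis genes, and 2 rises in 45 DNA replication genes. For 30 interferon response genes, 14 endothelial, 15 immune and 16 differentiated keratinocyte markers, edgeR and DESeq2 called none, and 6, 2, 0 and 3 of them had an unadjusted p under 0.05. The interferon list had a median of -0.11. In 8 of its genes all T20 libraries lay below T0 and in 1 above, against 9.51% and 12.6% over all genes tested. Its member IFIT1 (-0.465, adjusted p = 0.0539 by edgeR) was called lower under 4 of 13 alternatives, scaling without a TMM factor among them. Of 13 mitochondrially encoded mRNAs COX3, a subunit of cytochrome oxidase, was the single call (0.19), and it was lost without T0 replicate 1 (adjusted p = 0.0634 by edgeR) or T20 replicate 2 (0.106).

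The net change was small beside what happened between the harvests. Against the same T0 libraries, 332 genes differed at T4 (1.48%), 1582 at T8 (7.03%), 6317 at T12 (28.1%), 3350 at T16 (14.9%) and 818 at T20; these comparisons share the T0 libraries and the later harvests were added after the data had been seen. On the first principal component of the 18 Hay libraries (15.8% of variance) the T0 libraries lay between -15.7 and -13.8, the T8 libraries between -30.6 and -27.7, the T12 libraries between 42.5 and 49.1 and the T20 libraries between 0.91 and 2.26. T16 replicate 3 stood apart on the second component (6.6%) at -57.5. At T20 the libraries thus lay between their T0 and their T12 positions.

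ACTG2 stood at 17.2 ± 1.24 CPM at T0, 11.4 ± 0.528 at T4, 6.86 ± 0.415 at T8, 95.4 ± 0.318 at T12, 59.2 ± 1.30 at T16 and 32.8 ± 0.712 at T20 (SD, n = 3 each). ACTA2 stood at 159, 121, 94.9, 484, 336 and 237 CPM at the same times. Their T20 levels lay above T0 but far under the level at T12. INSIG1 stood at 29.3 ± 0.567 CPM at T0, 33.0 ± 0.666 at T8, 70.3 ± 4.18 at T12 and 44.7 ± 2.31 at T20, and MSMO1 at 132 ± 4.63, 118 ± 1.86, 247 ± 6.73 and 166 ± 4.43 CPM. INSIG1, MSMO1, ACTG2 and ACTA2 thus shared the steep step between T8 and T12. CYP24 ran the other way, with 198 ± 2.71 CPM at T0, 201 ± 6.11 at T8, 85.6 ± 4.12 at T12 and 137 ± 2.90 at T20. ARRDC4 was higher than at T0 in the mean of every later harvest, with 819 ± 10.7 CPM at T0, 1098 ± 29.2 at T8, 909 ± 15.2 at T12 and 1022 ± 19.3 at T20. NR4A1 and EGR2 had another course: NR4A1 stood at 21.9 ± 1.25 CPM at T0, 14.2 ± 0.928 at T4 and 13.2 to 15.2 CPM from T8 to T20, and EGR2 at 7.59 ± 0.377 CPM at T0 and 3.79 ± 0.483 at T4.

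**Figure D4:**
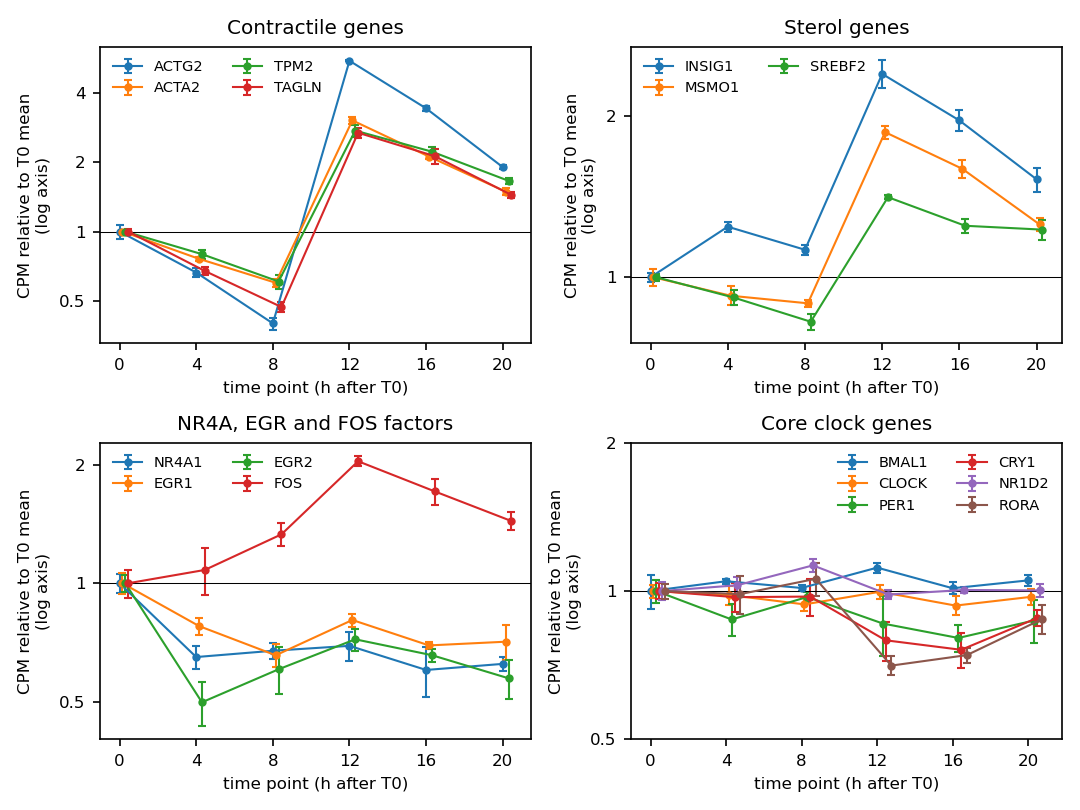
Mean CPM at each Hay harvest divided by the T0 mean (log axis, y) against hours after T0 (x), in 4 panels of contractile, sterol, EGR, NR4A and FOS, and core clock genes; bars are the SD of 3 libraries on the same scale. The contractile genes dip until T8, step up at T12 and come down to T20, NR4A1, EGR1 and EGR2 are lower from T4 on, and the clock genes shown cover the narrowest range.

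Few of the called genes moved steadily from T0 to T20. Of the 635 rises, 514 had their highest mean at T12 and 50 at T20, 375 had their lowest at T8, and 2 rose at every step. Of the 183 falls, 109 had their lowest mean at T12 and 44 at T20, and 2 fell at every step. A linear slope over the 12 Hay libraries of T4 to T16, none of which enters T20 against T0, was called for 7058 genes (31.4%; 3840 upward, 17.1%, and 3218 downward, 14.3%). Without a TMM factor 2252 were upward and 5567 downward. Of the 635 rises 531 (83.6%) had an upward slope past the threshold and 21 a downward one, and these 531 were 13.8% of all upward slopes. Of the 183 falls 130 (71.0%) had a downward slope, which were 4.04% of all downward slopes, and 6 an upward one. Across the 818 genes, which are not independent replicates, the log2 change and the slope correlated at r = 0.524 and rho = 0.626, and 91.0% had the same sign, against r = 0.0929, rho = 0.302 and 64.5% over all genes. Of the largest falls, EGR2 had an upward slope of 0.43 (adjusted p = 0.00815 by edgeR) beside its net fall of 0.80, and NR4A1 a slope of -0.09 (0.458) beside its net fall of 0.68.

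In Grain medium, 2032 genes differed between T20 and T0 (9.04%; 1133 higher, 5.04%, and 899 lower, 4.00%). Of the 635 Hay rises 127 (20.0%) also rose in Grain, 11.2% of the Grain rises, and 43 fell there. Of the 183 Hay falls 48 (26.2%) also fell in Grain, 5.34% of the Grain falls, and 4 rose. Over the 818 genes 64.9% had the same sign in both media, against 53.3% over all genes. The change over 20 h differed between the media past the threshold for 929 genes (4.13%; 587 higher in Hay than in Grain, 2.61%, and 342 lower, 1.52%). The split was 366 and 772 without a TMM factor, and the total fell to 572 without Grain T0 replicate 1 and 576 without Grain T20 replicate 1. Among them were 228 of the 635 Hay rises with a higher change in Hay and 28 of the 183 falls with a lower one. Both sets were chosen by their change in Hay, which enters this difference, so these counts follow in part from that choice.

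Of the 6 named genes with the smallest p of this difference, 3 were contractile: TPM2, ACTG2 and FLNA. TPM2 rose by 0.73 in Hay and changed by -0.15 in Grain, from 382 ± 28.4 to 344 ± 27.2 CPM (difference 0.88, adjusted p = 6.98e-09 by edgeR). ACTG2 stood at 77.6 ± 10.3 and 75.4 ± 5.88 CPM in Grain (difference 0.97, adjusted p = 1.51e-08). Both were already higher in Grain at T0 than in Hay at T20. INSIG1 was flat in Grain, at 122 ± 5.74 and 119 ± 0.289 CPM, in contrast to its rise in Hay (difference 0.64, adjusted p = 9.38e-09). FOS went in opposite directions: it fell in Grain from 32.6 ± 0.466 to 20.5 ± 0.241 CPM (-0.67), which gave a difference of 1.20 (adjusted p = 6.98e-09). EGR1 fell in both media but further in Grain, from 59.3 ± 3.00 to 21.2 ± 1.24 CPM (-1.48 against -0.50 in Hay, adjusted p of the difference 6.74e-08).

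Of the 12 largest falls, EGR1 and MSTN differed between the media past the threshold, MSTN with a change of 0.12 in Grain (difference -0.63, adjusted p = 0.00971 by edgeR). TGFB2, another fall, changed by 0.08 in Grain (difference -0.46, adjusted p = 0.00175). EGR2 fell by 1.40 in Grain on the log2 scale, and the difference of 0.60 (SE 0.19) had an adjusted p of 0.0613. NR4A1 fell by 0.53 in Grain on the log2 scale, from 133 ± 5.48 to 92.4 ± 4.99 CPM, MGP by 0.51 and SLPI by 0.74. The differences from Hay were -0.15 (SE 0.10), -0.03 and 0.11 for NR4A1, MGP and SLPI, with edgeR adjusted p of 0.529, 0.935 and 0.595, which does not show that the falls were equal. TXNIP rose in both media, by 0.18 in Hay and 0.56 in Grain, and the difference of -0.38 passed the threshold (adjusted p = 5.18e-07 by edgeR). ARRDC4 rose by 0.32 in Hay and 0.27 in Grain.

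**Figure D5:**
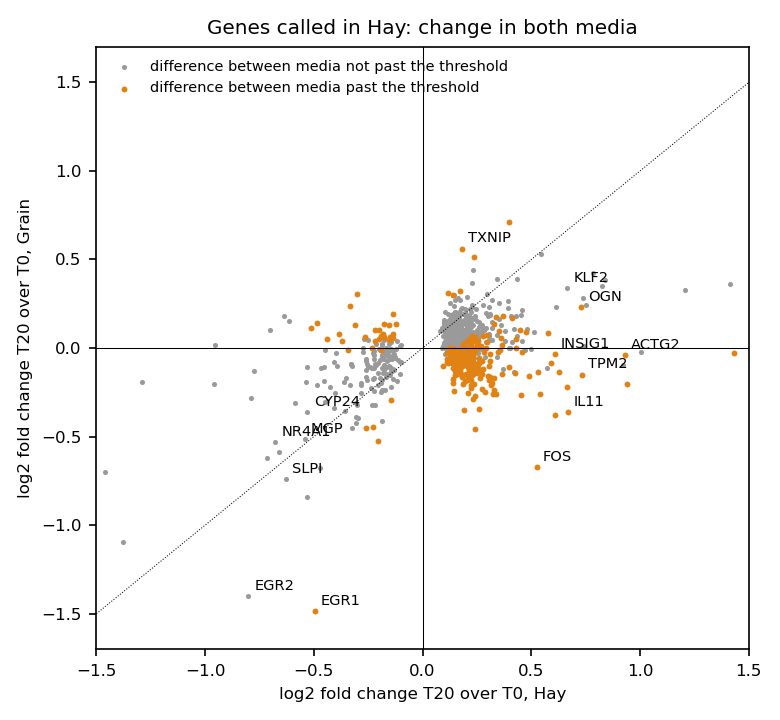
The log2 fold change T20 over T0 in Hay (x) against that in Grain (y) for the genes called in Hay, with the dotted line marking equal change; orange points are genes whose difference between the media passed the threshold. Of the 635 Hay rises, 389 had a change above 0 and 246 a change under 0 in Grain, with a median of 0.04. NR4A1, SLPI and MGP lie near the dotted line, EGR2 and EGR1 lie well under it, and points beyond the axes are left out.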

How the data were processed

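TRNzol RNA was made into TruSeq RNA v2 libraries, which keep no strand, and read in pairs on a NovaSeq instrument, as the labels' protocols state. The submitters' processing notes name HISAT2 2.2.1, StringTie 2.1.5 and SAMtools 1.20. The genome build and counting tool were not given in the sources used here. Whole-number read counts were deposited by the authors for 35223 genes and 36 libraries, with no normalisation.

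Groups came from the sample labels. Counts were filtered with filterByExpr (minimum count 10, minimum total 15, 12 groups), which left 22488 genes, scaled by TMM and fitted with edgeR 4.0.16 (limma 3.58.1, R 4.3.3) quasi-likelihood tests, a mean per group over all 36 libraries. Contrasts were Hay T20 minus T0, the linear slope over Hay T4 to T16, and the difference of T20 minus T0 between the media; p-values are two-sided and Benjamini-Hochberg adjusted, with a threshold of 0.05. Shares of counts were compared by exact permutation. The procedure was tested on simulated counts.

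The comparison and the 50 gene lists were chosen with earlier results of these data known; 52 list members had no entry in the table and are not analysed here. Gene names and overlaps between genes were looked up in RefSeq (ARS-UI_Ramb_v3.0). Genes were named by rule: a symbol, at least 5 CPM in a group mean, adjusted p under 0.05 and libraries apart, taking the 12 largest rises and falls, up to 4 members of each list with the smallest p, all core clock genes, and the 6 smallest p of the difference between media. Other list members, EGR3 among them, were added as examples after their values were seen, and some genes that the rule names are not reported here. Alternatives were DESeq2 1.42.0, its size factors, no filter, a filter of 1 CPM, a replicate block, fewer libraries in the fit, a minimum fold of 1.2 and leaving out each library; scaling without a TMM factor and the comparisons of Hay T4 to T16 with T0 were added after seeing the data.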

Additional observations from a re-analysis of the deposited data

Results flagged for a closer look

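The test of the difference between media in the change from T0 to T20 passed for 41 of the 104 tested genes that the text names. Of these, 37 had a higher and 4 a lower change in Hay than in Grain (edgeR adjusted p under 0.05). Over all 22488 genes tested it passed for 929 (4.13%), 587 higher and 342 lower. Many named genes were chosen for their change in Hay, which enters this difference. Their larger share and its direction thus follow in part from that choice. Among the 25 genes that are the largest rises and falls or have the smallest p of this difference, the test passed for 13. These 25 were picked by the p of this same test or by their change in Hay. That count therefore cannot show how common such differences are. Values are the Hay change minus the Grain change on the log2 scale. Among contractile genes it was 0.88 for TPM2, 0.97 for ACTG2, 0.52 for FLNA, 0.66 for TAGLN, 0.49 for ACTA2, 0.38 for MYL9 and 0.36 for CNN1. Among transcription factors it was 1.20 for FOS, 0.53 for JUN and 0.43 for JUND, and 0.99 for EGR1 and 1.25 for EGR3, where the fall was larger in Grain. For the sterol genes INSIG1, SREBF2, DHCR7 and MSMO1 it was 0.64, 0.22, 0.24 and 0.19. For the signals IL11, TNFSF9 and TGFB1 it was 1.03, 0.76 and 0.39, for the transporter SLCO4A1 0.80 and for the cyclooxygenase PTGS2 0.32. For the matrix genes OGN, TNC, TGFBI, CCN1 and LOXL2 it was 0.50, 0.48, 0.27, 0.26 and 0.34, for the collagens COL3A1, COL6A1, COL6A2 and COL6A3 0.26, 0.22, 0.25 and 0.19, and for the collagenase MMP14 0.61. For the keratins KRT14 and KRT5, neither called in Hay, it was 0.62 and 0.40. For COX3, RPL28, P4HB and ALDOA it was 0.39, 0.25, 0.22 and 0.21. The lower changes in Hay were -0.38 for TXNIP, -0.46 for TGFB2, -0.63 for MSTN and -0.22 for SLC4A7. Of the 41, 10 overlap another annotated gene. IL11 stood at 39.5 ± 2.70 CPM at T0 and 30.7 ± 1.55 at T20 in Grain (SD, n = 3), against 4.60 ± 0.455 and 7.31 ± 0.760 in Hay. The edgeR adjusted p of these differences ranged from 6.98e-09 (TPM2 and FOS) to 0.0486 (ALDOA).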

How the results depend on the processing

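A minimum fold of 1.2 left 20 of the 818 genes (14 higher, 6 lower) and 10 of the 144 list members, so most calls are changes smaller than that fold or not shown to exceed it. Leaving out a library gave 443 to 573 calls, 93 to 113 list members, 6077 to 6956 slopes, 572 to 916 differences between the media and a difference in mitochondrial share of 0.0315 to 0.161 percentage points (0.092 with all). DESeq2 gave 1149 calls, no filter 606 and no TMM factor 814, of which 38.5% were rises against 77.6%; 496 of these 814 genes were among the 818. For the difference between media DESeq2 gave 1325, and the other settings 727 to 1138.

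The replicate numbers did not pair the libraries: same-numbered T0 and T20 libraries correlated at 0.014, 0.004 and 0.002 in their deviations from the group means. A replicate block gave 831 calls, with 775 shared, 6986 slopes and 934 differences. Of the 24 largest rises and falls, 20 were called under all 14 alternatives other than the minimum fold. The exceptions were LAD1, SFN, NPFFR2 and YY2. Of the 118 called genes named by the rule, 58 kept their call under all these alternatives and 60 did not. None of the 118 reversed, which does not show that their calls were stable. With 3 libraries a group, exact tests cannot go below 0.1, and small changes in genes of low count were not detectable.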
